A study of Mus musculus with 18 samples.

Results

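The 10 genes described here encode selenoproteins of the endoplasmic reticulum (ER), the cytosol, the nucleus and mitochondria, and were followed through brain, kidney and gastrocnemius muscle of old mice. They are Selm, Selk, Selt, Selo, Vimp, Sepn1, Selenof, Ept1, Sepw1 and 2700094K13Rik, the last of which is now called Selenoh, and they were chosen by name: 10 of the 34745 genes in the table. All 10 were found. Selenof was taken by its identifier (ENSMUSG00000037072), because a date stood in its name field. The libraries were made from polyadenylated RNA, 3 per group and tissue and 18 in all. SeMSNs mice were male wild-type C57BL/6 mice that received SeMSNs, described as a nano-selenium supplement, and old control mice were animals of the same sex, strain, genotype and age that received saline by gavage on a normal diet. Treatment began at 18 months and tissues were taken at 23 months, so every group is old and none is young. The descriptions disagree on the dose: one gives 5 mg/kg at 1 mg/mL, repeated within each period of 2 days, and the other 10 mg/kg each day. They do not say whether each library came from a separate mouse, so p-values measure only the spread between these libraries.

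Selenoproteins carry selenocysteine, an amino acid inserted at a UGA codon that would otherwise end translation, with the help of a stem-loop element in the messenger RNA. Selm, Selenof, Selt, Selk, Vimp, Sepn1 and Ept1 act in the lumen or membrane of the ER, where proteins are folded, disulfide bonds are made, misfolded proteins are sent for degradation and calcium is stored. Sepw1 is a small cytosolic redox protein that is abundant in muscle and brain, 2700094K13Rik encodes a nuclear redox protein, and Selo encodes a mitochondrial protein of kinase fold that attaches AMP to other proteins.

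Both the place of selenocysteine and the codons before it differ between these genes, and the coding sequence around each codon is therefore shown first. Windows run 5′ to 3′ on the coding strand, from GENCODE transcripts of the GRCm38 build, and the capitals TGA mark the selenocysteine codon. In the first 5 lines a second capital triplet, TGT, marks a cysteine codon 3 codons earlier, the spacing of the redox motif with 2 residues between cysteine and selenocysteine.
Selm: accTGTggaggaTGAcagttgaatcgccta
2700094K13Rik: catTGTacgagcTGAcgcgtgtacggccgc
Selt: attTGTgtatccTGAgggtaccggcgggtg
Sepw1: tatTGTggagctTGAggctataagcccaag
Selo: ctcTGTgtaacaTGAtcctcataa
Selenof: gaagtctgcggaTGAaaattggggaggttc
Sepn1: gaccagtcctgcTGAggttccgggcggact
Ept1: ccaaactcagatTGActaggaatggaagaa
Selk: atggctggtggaTGAggaaggtaa
Vimp: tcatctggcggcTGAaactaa

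A cysteine codon stood 3 codons before TGA in 5 of the 10 genes. In Selenof a cysteine codon (tgc) stood 2 codons before TGA, and in Sepn1 directly before it, both left in small letters above. In Selm (chr11:3516273-3516275, plus strand) selenocysteine was codon 48 of 145, in 2700094K13Rik (chr2:84670381-84670383, minus strand) codon 38 of 123, in Selt (chr3:58585238-58585240, plus strand) codon 49 of 195 and in Sepw1 (chr7:15920464-15920466, minus strand) codon 13 of 88. In Selo the same spacing lay at the other end of the protein, at codon 665 of 667 (chr15:89099975-89099977, plus strand). Vimp and Selk also carried selenocysteine at the very end, with 1 codon left in Vimp (codon 189 of 190, chr7:66088844-66088846, plus strand) and 2 codons left in Selk (codon 92 of 94, chr14:29973440-29973442, plus strand). The codon was 388 of 398 in Ept1 (chr5:30266964-30266966, plus strand), 93 of 162 in Selenof (chr3:144590645-144590647, plus strand) and 428 of 557 in Sepn1 (chr4:134542338-134542340, minus strand). The map of codon positions shows the early and the late placements side by side.

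**Figure D1:**
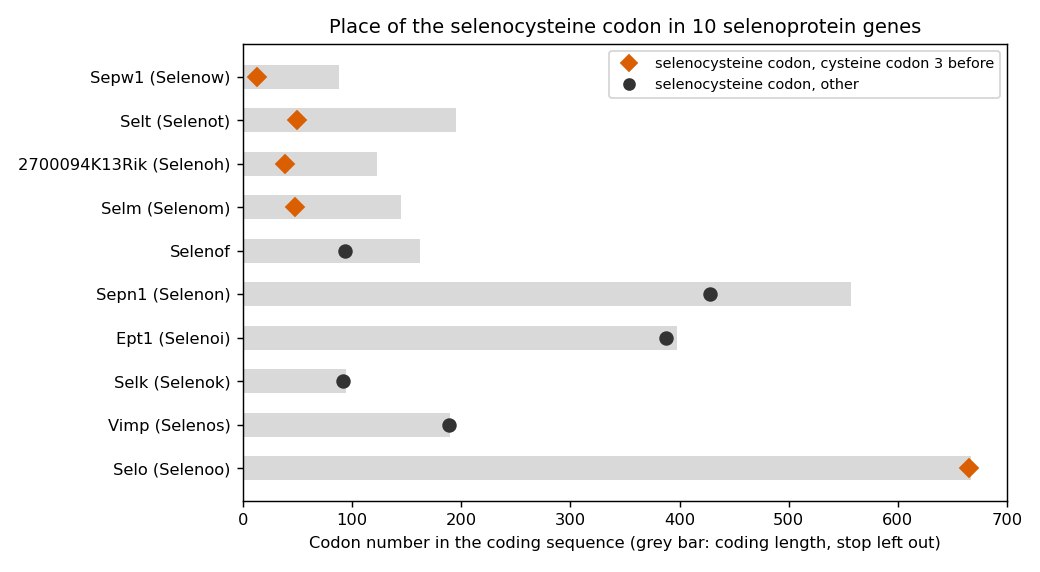
Place of the selenocysteine codon (marker) along the coding length of each gene in codons (grey bar, stop codon left out), from the GRCm38 transcripts. Orange diamonds are genes with a cysteine codon 3 codons earlier; in 4 of these the codon lies between 14.8% and 33.1% of the coding length, whereas Selo, Vimp and Selk carry it within the last 3 codons.

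Libraries held 17357799 to 22146406 counts. The labelled tissues carried their defining markers: 7 neuron markers summed to 790 to 915 FPKM in SeMSNs brain and 751 to 856 FPKM in control brain, against at most 4.65 FPKM in the other tissues; 7 proximal tubule markers summed to 2241 to 2343 FPKM in SeMSNs kidney and 1813 to 2184 FPKM in control kidney; and 8 fast fibre markers summed to 27865 to 30146 FPKM in SeMSNs gastrocnemius and 20701 to 24754 FPKM in control gastrocnemius. FPKM is the deposited level, which divides counts by gene length and library total. The fast fibre markers, which include Pvalb, summed to 45.8, 338 and 13.5 FPKM in control brain libraries 1, 2 and 3. In SeMSNs brain libraries 1, 2 and 3 they summed to 203, 169 and 33.1 FPKM. The proximal tubule markers summed to 76.9 to 260 FPKM in control gastrocnemius and 133 to 156 FPKM in SeMSNs gastrocnemius. In neither group did the brain libraries all match each other. The 10 cerebellar markers (En2, Neurod1, Car8, Pcp2, Cbln1, Cbln3, Gabra6, Zic1, Calb1 and Fat2) summed to 1075 and 985 FPKM in SeMSNs brain libraries 1 and 2 and to 36.0 FPKM in library 3, against 43.8, 39.0 and 44.2 FPKM in control brain. The 8 hypothalamic markers summed to 0.834 to 1.80 FPKM in SeMSNs brain, with Hcrt, Oxt and Avp at 0 in all 3 libraries. In control brain libraries 1, 2 and 3 they summed to 221, 20.9 and 251 FPKM. The 9 striatal markers, none at 0, summed to 94.0, 88.0 and 40.3 FPKM in SeMSNs brain libraries 1, 2 and 3. Control brain libraries 1, 2 and 3 had 315, 93.9 and 460 FPKM. The 6 choroid plexus markers summed to 706, 135 and 15.1 FPKM in SeMSNs brain and 526, 523 and 399 FPKM in control brain. Control library 2 was thus the lowest of its group in the hypothalamic and striatal sums, and the highest of all brain libraries in the fast fibre sum. SeMSNs library 3 was the lowest of all brain libraries in the cerebellar, striatal and choroid plexus sums. Its sums of 7 oligodendrocyte markers (721 FPKM) and 6 astrocyte markers (403 FPKM) were instead the highest of all brain libraries. The oligodendrocyte sums were 483 and 461 FPKM in SeMSNs libraries 1 and 2 and 525 to 694 FPKM in control brain. The astrocyte sums were 286 and 294 FPKM in SeMSNs libraries 1 and 2 and 245 to 364 FPKM in control brain. The 7 endothelial markers, none at 0, summed to 20.99 to 22.1 FPKM in SeMSNs brain and 23.1 to 24.1 FPKM in control brain. All brain results below are read beside these values; their part in any difference was not tested. In bulk tissue, fewer cells of a type and less RNA per cell cannot be told apart.

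In brain Selm, Selo, Vimp and Sepn1 were each higher in all 3 SeMSNs libraries than in every control library, by 1.57-fold to 2.17-fold on average, yet none of the 10 genes passed the test: the quasi-likelihood test of edgeR, with p-values adjusted by Benjamini-Hochberg over 16082 genes, called 0 of 10 members, beside a background of 0.00622% of all genes. At an unadjusted p under 0.05 there were 4 members higher and 0 lower, where 7.39% of all genes were higher and 8.03% lower. Groups did not overlap for 4 members on the higher side, against 10.3% of all genes, and for 1 on the lower side, against 10.7%. The median log2 fold change was 0.21 over the 10 members and 0.01 over all genes.

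Among the thioredoxin-fold proteins of the ER lumen, Selm had 57.5, 44.9 and 22.5 FPKM in SeMSNs brain libraries 1, 2 and 3, against 18.7, 14.8 and 22.5 FPKM in control brain. Libraries 1 and 2 stood well above every control library, and library 3 lay level with the highest control library, just above it before rounding. The log2 fold change was 1.12 ± 0.33 (SE), with an unadjusted p of 0.0121 and an edgeR adjusted p of 0.26. Selenof, which works with the glycoprotein folding sensor, ranged from 12.2 to 14.99 FPKM in SeMSNs brain and from 11.1 to 15.1 FPKM in control brain, and its log2 fold change was 0.04 ± 0.16. The groups of Selm were separate in brain, whereas those of Selenof covered one another.

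Of the ER membrane proteins tied to the removal of misfolded proteins, Vimp, which joins Vcp and derlins at the membrane, had 13.7, 12.998 and 8.56 FPKM in SeMSNs brain libraries 1, 2 and 3. Control brain had 7.41, 6.56 and 7.89 FPKM, all lower. Its log2 fold change was 0.65 ± 0.18, with an unadjusted p of 0.0106 and an edgeR adjusted p of 0.256. Selk, its partner in this pathway and a cofactor of protein palmitoylation, ranged from 36.0 to 49.2 FPKM in SeMSNs brain and from 36.5 to 44.8 FPKM in control brain, and the groups overlapped. Selt, a thioredoxin-fold protein of the ER membrane, ranged from 47.4 to 57.3 FPKM in SeMSNs brain and from 48.7 to 54.9 FPKM in control brain, with a log2 fold change of -0.0034 ± 0.10.

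Sepn1 encodes an ER membrane protein that regulates calcium uptake by the ER pump and whose loss causes muscle disease in humans. It had 15.2, 14.7 and 7.47 FPKM in SeMSNs brain libraries 1, 2 and 3, against 6.66, 5.93 and 6.60 FPKM in control brain. All SeMSNs libraries were above all control libraries, library 3 by the smallest margin. The log2 fold change was 0.92 ± 0.26, with an unadjusted p of 0.0102 and an edgeR adjusted p of 0.254. Ept1, the ethanolamine phosphotransferase that makes phosphatidylethanolamine, was the single member on the lower side with separate groups. It had 3.29, 3.38 and 2.84 FPKM in SeMSNs brain, against 3.51, 3.404 and 4.41 FPKM in control brain. The gap between the nearest libraries was small, and its log2 fold change was -0.29 ± 0.13, with an edgeR adjusted p of 0.348.

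Outside the ER, the mitochondrial Selo had 11.2, 11.3 and 7.31 FPKM in SeMSNs brain libraries 1, 2 and 3, against 5.41, 5.81 and 6.15 FPKM in control brain. The groups were separate, again with library 3 closest to control. Its log2 fold change was 0.74 ± 0.18, with the smallest unadjusted p of the 10 members (0.00509) and an edgeR adjusted p of 0.254. Exons of Selo overlap those of Tubgcp6 on the opposite strand (225 to 2105 counts per library), and whether strand was used in counting is not given in the sources used here, so reads of the pair cannot be told apart. Sepw1 had 265, 252 and 416 FPKM in SeMSNs brain, against 341, 316 and 343 FPKM in control brain: libraries 1 and 2 lay below all control libraries and library 3 above all of them. 2700094K13Rik ranged from 1.85 to 3.89 FPKM in SeMSNs brain and from 1.57 to 3.08 FPKM in control brain, with overlapping groups.

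The brain values turned on SeMSNs library 3. Without it edgeR called 5 of 10 members, with Selm (log2 fold change 1.40, adjusted p = 0.00599), Selo (0.90, 0.00454), Vimp (0.82, 0.00639) and Sepn1 (1.17, 0.00168) higher and Sepw1 lower (-0.42, 0.0241), in a comparison that then called 2852 genes, 17.2% of those tested. With library 3 as the lone SeMSNs library, and its spread taken from the control libraries, edgeR called 0 members, and the log2 fold changes were 0.29 for Selm, 0.35 for Selo, 0.24 for Vimp and 0.23 for Sepn1, all still above 0, while that of Sepw1 turned to 0.33. Libraries 1 and 2, in which these 4 genes were highest, were also those with the high cerebellar marker sum, as the plot of members against that sum shows; its part in the difference was not tested. DESeq2 on all 6 libraries called 3 of 10 members, Selm (adjusted p = 0.0379), Selo (0.0281) and Sepn1 (0.0442), among 668 genes, 4.16% of those tested, and limma on log2(FPKM + 1) called 0. Over all settings tried the adjusted p ranged from 0.00599 to 0.678 for Selm and from 0.00454 to 0.609 for Selo.

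**Figure D2:**
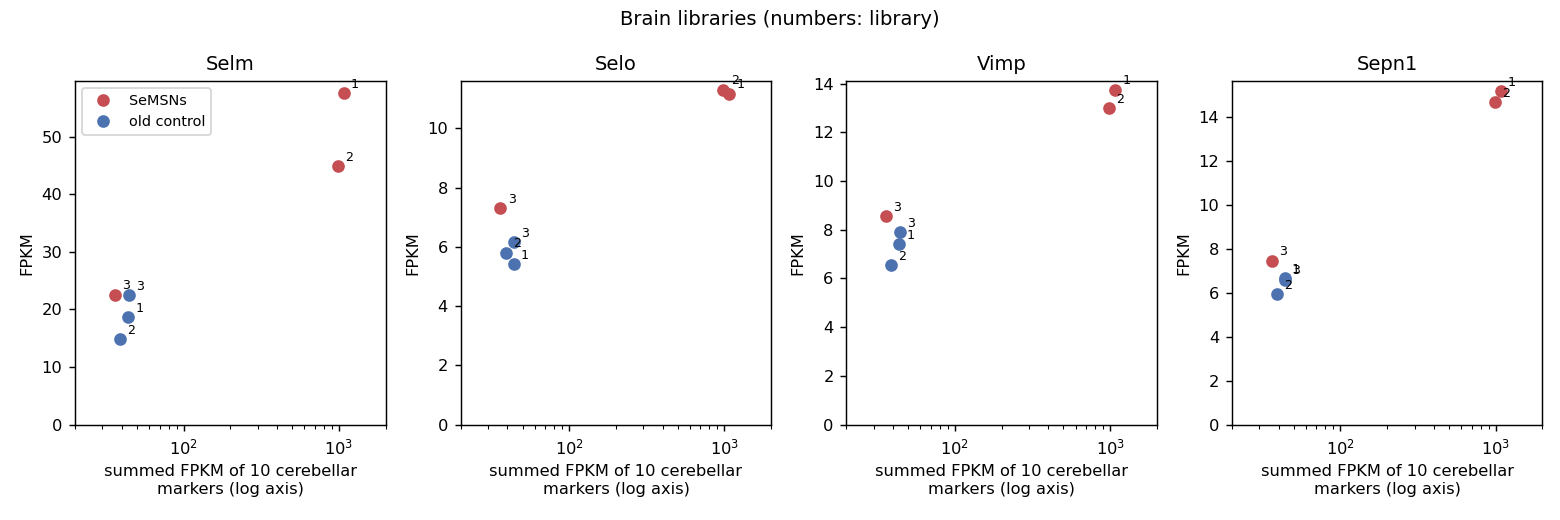
FPKM of Selm, Selo, Vimp and Sepn1 in each brain library (vertical axes) against the summed FPKM of 10 cerebellar markers in the same library (horizontal log axes), with the library number beside each point. SeMSNs libraries 1 and 2 sit alone at sums of 1075 and 985 FPKM, and SeMSNs library 3 sits at 36.0 FPKM beside the control libraries (39.0 to 44.2 FPKM). Library 3 was below every control library in other regional sums, with 15.1 against 399 to 526 FPKM for choroid plexus and 40.3 against 93.9 to 460 FPKM for striatum.

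In kidney the groups overlapped for all 10 members after TMM scaling. edgeR called 0 of 10 members over 15051 genes, beside 0.00664% of all genes, with 0 members at an unadjusted p under 0.05 and 0 with separate groups, where 6.11% and 13.4% of all genes were, and DESeq2 and limma also called 0. Log2 fold changes lay between -0.34 and 0.32 for 9 of the members, and the median was -0.06. Selm had 6.93, 8.79 and 6.90 FPKM in SeMSNs kidney, against 7.18, 6.35 and 4.29 FPKM in control kidney, so its groups overlapped. Selenof was at 18.3, 18.6 and 18.5 FPKM in SeMSNs kidney, against 17.6, 17.0 and 16.7 FPKM in control kidney, separate in FPKM but not after TMM scaling, on which its log2 fold change was 0.07 ± 0.10. Beside these values, 9 macrophage markers, none at 0, summed to 131 to 155 FPKM in SeMSNs kidney and 172 to 214 FPKM in control kidney. Likewise 7 endothelial markers, none at 0, summed to 25.9 to 29.6 FPKM in SeMSNs kidney and 30.6 to 41.9 FPKM in control kidney, and the proximal tubule sums given above were separate in the other direction; their part in these values was not tested.

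Ept1 was the exception in size but not in test. It had 0.180, 0.0783 and 0.592 FPKM in SeMSNs kidney, against 0.646, 0.997 and 0.204 FPKM in control kidney, from 61, 23 and 206 counts against 232, 374 and 65 counts. Each group held both high and low libraries and they overlapped. The log2 fold change was -1.14 ± 0.72, with an edgeR adjusted p of 0.779. It ran from -2.25 without SeMSNs library 3 to -0.65 without control library 2, with an adjusted p of at least 0.746 each time 1 library was left out. The spread of Ept1 within kidney groups, a standard deviation of 1.24 on the log2 scale, was larger than that of 98.7% of 18001 genes, whereas Selenof, at 0.07, was above 6.0% of them. Over the groups of all 3 tissues Ept1 exceeded 94.1% of genes.

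In gastrocnemius edgeR called 0 of 10 members over 13150 genes, beside 0.0228% of all genes, with 0 at an unadjusted p under 0.05 against 13% of all genes, and DESeq2 and limma called 0 as well. Ept1 was again variable, with 0.102, 0.507 and 0.142 FPKM in SeMSNs gastrocnemius, against 0.373, 0.610 and 0.393 FPKM in control gastrocnemius. SeMSNs library 2 lay among the control libraries, and the log2 fold change was -0.88 ± 0.51, with an edgeR adjusted p of 0.483. Without that library it was -1.84, and without SeMSNs library 1 it was -0.52. Sepw1 had 633, 757 and 593 FPKM in SeMSNs gastrocnemius, against 644, 442 and 463 FPKM in control gastrocnemius, which overlapped through control library 1 (log2 fold change 0.35 ± 0.25). 2700094K13Rik had 1.75, 2.05 and 0.999 FPKM in SeMSNs gastrocnemius, against 1.25, 0.648 and 1.19 FPKM in control gastrocnemius, with a log2 fold change of 0.64 ± 0.36 and overlapping groups.

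Selm was the one member of the 10 whose gastrocnemius groups were separate after TMM scaling, beside 9.86% of all genes on the higher side. It had 7.25, 7.33 and 6.62 CPM, counts scaled to the library size, in SeMSNs gastrocnemius, against 5.97, 5.87 and 6.49 CPM in control gastrocnemius, while its FPKM overlapped. The log2 fold change was 0.21 ± 0.21. Selk (0.29 ± 0.17), Selenof (0.20 ± 0.22), Selt (-0.03 ± 0.20), Vimp (-0.19 ± 0.23), Selo (-0.26 ± 0.21) and Sepn1 (-0.01 ± 0.30) had log2 fold changes within 2 standard errors of 0. Beside these, the 8 fast fibre markers were higher in SeMSNs libraries as given above, and 6 slow fibre markers summed to 192 to 670 FPKM in SeMSNs gastrocnemius and 261 to 2141 FPKM in control gastrocnemius, with none at 0; their part was not tested.

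**Figure D3:**
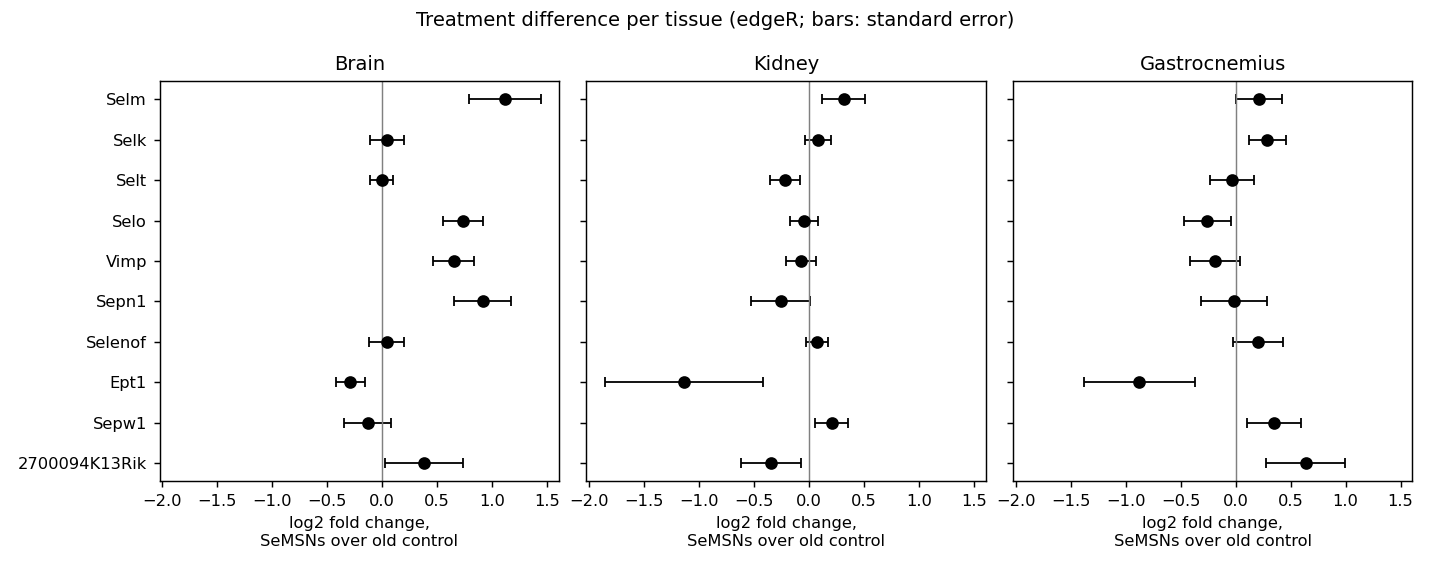
Log2 fold change of each member, SeMSNs over old control, in the 3 tissues (points: edgeR estimate from 3 libraries against 3; bars: standard error). Selm, Sepn1, Selo and Vimp stand to the right of 0 in brain, and Ept1 stands to the left in each tissue with the widest bars in kidney and gastrocnemius; none passed the adjusted threshold.

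Over the 3 tissues together Selm and Ept1 lay furthest from 0. The effect averaged over tissues was 0.53 ± 0.15 for Selm (unadjusted p = 0.00239, edgeR adjusted p = 0.11) and -0.78 ± 0.35 for Ept1 (unadjusted p = 0.0411, adjusted p = 0.268), and edgeR called 0 of 10 members over 18001 genes, beside 0.0889% of all genes. At an unadjusted p under 0.05 there was 1 member higher and 1 lower, against 7.95% and 9.33% of genes. DESeq2 called 1 member, Selm (adjusted p = 0.0262), where it called 5.88% of genes, and without SeMSNs brain library 3 edgeR called Selm (0.63, adjusted p = 0.00926), where it called 3.32% of genes. Averaged over kidney and gastrocnemius alone the effect was 0.26 for Selm (adjusted p = 0.393) and -1.01 for Ept1 (adjusted p = 0.368), and 0 members were called.

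The same 4 genes had a larger estimated effect in brain than in the other tissues, short of the adjusted threshold. Both differences reuse the brain libraries in which these 4 genes stood out, so they are not evidence independent of the brain test or of each other. For brain minus kidney the difference of log2 fold changes was 1.12 ± 0.38 for Sepn1, 0.75 ± 0.35 for Selm, 0.74 ± 0.25 for Selo and 0.67 ± 0.28 for Vimp, with edgeR adjusted p-values of 0.464, 0.648, 0.464 and 0.565. For brain minus gastrocnemius it was 0.96 ± 0.25 for Selo, 0.89 ± 0.38 for Sepn1, 0.86 ± 0.37 for Selm and 0.80 ± 0.28 for Vimp, with adjusted p-values of 0.173, 0.377, 0.371 and 0.29. Size alone did not set these genes apart. For brain minus kidney Ept1 (0.81 ± 0.84) and 2700094K13Rik (0.67 ± 0.51) had estimates of similar size with larger standard errors. For brain minus gastrocnemius Ept1 was at 0.55 ± 0.85 and 2700094K13Rik at -0.30 ± 0.52. edgeR called 0 of 10 members in either difference, beside 0% and 0.0333% of genes, and at an unadjusted p under 0.05 there were 4 members in each, against 7.66% and 11.7% of genes. DESeq2 called 0 for brain minus kidney and 1, Selo (adjusted p = 0.0481), for brain minus gastrocnemius, where it called 0.721% and 1.59% of genes. Without SeMSNs brain library 3 edgeR called Sepn1 in the first difference (adjusted p = 0.0495), beside 2.27% of genes, and Selo (0.019) and Selm (0.0384) in the second, beside 3.21% of genes. Without control gastrocnemius library 3 it called Selo (0.0222) and Vimp (0.0453) in the second, beside 1.56% of genes. For kidney minus gastrocnemius edgeR called 0 members, beside 0.0111% of genes, and 0 had an unadjusted p under 0.05, against 6.57% of genes; DESeq2 also called 0.

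The pathways in which these proteins work were read from lists of their other genes. In brain, 0 of 29 genes of ER-associated degradation passed the edgeR test, with a median log2 fold change of 0.11 against 0.01 over all genes; the smallest p belonged to Herpud1, an ER membrane organizer of degradation (0.40 ± 0.12, adjusted p = 0.26), and Aup1 (0.35 ± 0.12, adjusted p = 0.269). In the ER calcium store, 0 of 16 genes passed, and the 2 with the smallest p were the pump Atp2a3 (3.56 ± 0.94, adjusted p = 0.254) and the release channel Itpr3 (2.40 ± 0.70, adjusted p = 0.26). The median of this list was 0.13. Its genes summed to 387, 392 and 207 FPKM in SeMSNs brain libraries 1, 2 and 3. Control brain libraries 1, 2 and 3 had 241, 281 and 206 FPKM. SeMSNs libraries 1 and 2 were also those with the high cerebellar marker sum, and control library 2 had the highest fast fibre sum in brain. The part of these sums was not tested. The synthesis of phosphatidylethanolamine and phosphatidylcholine, where Ept1 acts, had 0 of 13 genes passing, led by Pcyt2, the enzyme one step before Ept1 (0.42 ± 0.12, adjusted p = 0.254), and Chkb, a choline and ethanolamine kinase (0.62 ± 0.21, adjusted p = 0.272). Glycoprotein folding control, with 0 of 10 passing (Canx -0.19 ± 0.09, Ppib 0.20 ± 0.11), and ER disulfide and peroxide enzymes, with 0 of 20 (Ero1l -0.37 ± 0.12, Erp29 0.44 ± 0.15), had medians of 0.0034 and -0.0062. Among other selenoprotein genes 0 of 11 tested passed, with Dio2 at -0.46 ± 0.16 and Gpx3 at -1.06 ± 0.47.

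In kidney and gastrocnemius, too, 0 genes of the 6 lists passed. The kidney gene furthest from 0 among those with the smallest p was Gpx1, a cytosolic glutathione peroxidase (1.76 ± 0.75, edgeR adjusted p = 0.772); the others, Rnf139, Ube2j2, Mogs, Calr, Tmx3, Ero1l, Etnk1, Pcyt2, Stim1, Itpr3 and Msrb1, lay between -0.31 and 0.30. In gastrocnemius, among the 2 genes with the smallest p in each list, the furthest from 0 were Dio3 (-2.14 ± 0.88, adjusted p = 0.365), Dio2 (-1.99 ± 0.78, adjusted p = 0.352), the calcium release channel Ryr3 (-1.59 ± 0.37, adjusted p = 0.292) and the degradation factor Ubxn4 (-1.01 ± 0.29, adjusted p = 0.312). Sel1l, Uggt1, Canx, Tmx2, Qsox1, Pisd, Ptdss1 and Atp2a3 lay between -0.57 and 0.79. The median of 28 tested degradation genes was -0.11 there, against -0.01 over all genes.

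The tissues held these transcripts at different levels. Sepw1 spanned the widest range: 333 ± 14.99 FPKM in control brain, 30.2 ± 5.86 FPKM in control kidney and 516 ± 111 FPKM in control gastrocnemius (SD, n = 3 each). Selm was highest in brain (18.6 ± 3.84 FPKM), lower in kidney (5.94 ± 1.49 FPKM) and lowest in gastrocnemius (1.32 ± 0.168 FPKM), with no overlap between neighbours. Ept1 and Sepn1 were brain genes among the 3 tissues: Ept1 had 3.78 ± 0.553, 0.616 ± 0.398 and 0.459 ± 0.132 FPKM in control brain, kidney and gastrocnemius, and Sepn1 had 6.40 ± 0.406, 0.986 ± 0.160 and 0.905 ± 0.347 FPKM, with kidney and gastrocnemius within their spread of each other for both.

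Selo, Vimp, Selenof and Selt had their highest control mean in kidney. Selo was at 5.79 ± 0.371, 11.9 ± 2.23 and 4.90 ± 0.996 FPKM in brain, kidney and gastrocnemius, and Vimp at 7.29 ± 0.675, 11.7 ± 1.83 and 6.92 ± 1.81 FPKM, with brain and gastrocnemius overlapping for both. Selenof was at 12.5 ± 2.25, 17.1 ± 0.462 and 7.71 ± 1.96 FPKM, and Selt at 51.5 ± 3.17, 69.2 ± 1.64 and 37.3 ± 5.09 FPKM. Selk, at 41.1 ± 4.23, 33.3 ± 2.73 and 30.1 ± 4.57 FPKM, and 2700094K13Rik, at 2.13 ± 0.827, 1.79 ± 0.670 and 1.03 ± 0.332 FPKM, had their highest mean in brain on this scale, an order that TMM scaling does not keep. Selk and Selt each have annotated processed pseudogenes, so part of their reads may be shared with these copies.

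**Figure D4:**
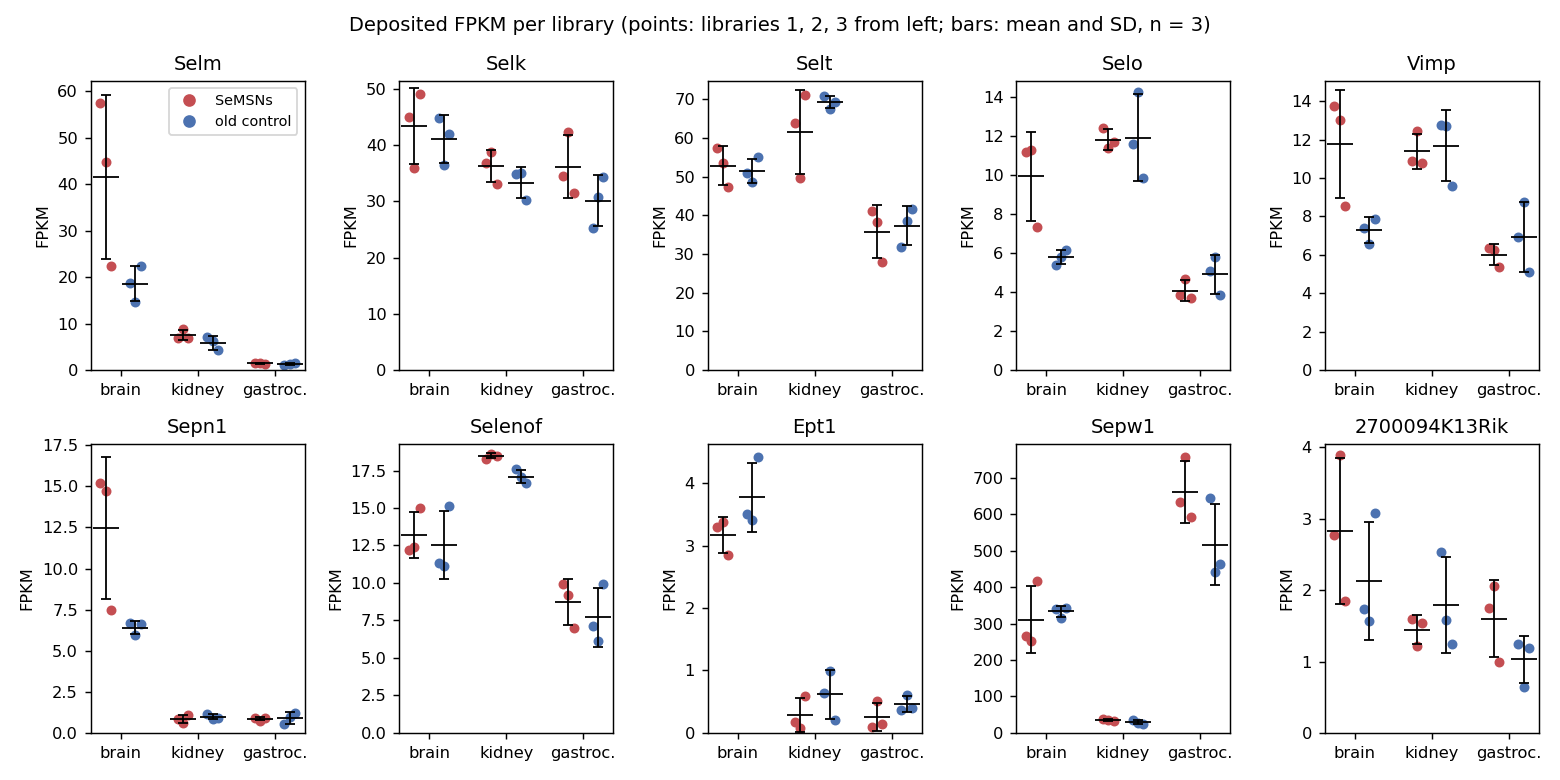
Deposited FPKM of each member in every library (points, libraries 1 to 3 from left to right within a group; horizontal bars and whiskers: mean and SD, n = 3), by tissue and treatment, each axis starting at 0. Sepw1 is lowest in kidney and highest in gastrocnemius, Selm, Sepn1 and Ept1 are highest in brain, and Selo, Vimp, Selenof and Selt have their highest control mean in kidney.

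Levels between genes depended on the length behind the FPKM. The ratio of counts to FPKM gives the length used, and it was 736 bases for Sepw1, the same as its annotated selenoprotein transcript. For Selm it was 3121 bases, against 707 bases for the transcript and 2668 bases for the whole gene span of the deposited locus. For 2700094K13Rik it was 3234 bases, against a transcript of 499 and a span of 1556 bases, and for Selenof 7502 bases, against a transcript of 1514 bases. With transcript lengths Selm in control brain would stand at 82.3 FPKM, the second highest of the 10, where the deposited FPKM puts it at rank 4, and Selenof in control kidney at 84.7 FPKM, the highest of the 10, where the deposited FPKM also puts it at rank 4. Sepw1 led in brain and gastrocnemius on either length. The length used exceeded the span of the deposited locus in 1037 of 17773 genes (5.83%). It is the same in all libraries, so it does not enter the differences between tissues or treatments of 1 gene.

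Tests between tissues depended on scaling. TMM scaling and library totals alone, as in the FPKM, placed the median of all genes apart by 0.50 on the log2 scale for brain over kidney, 1.08 for brain over gastrocnemius and 0.58 for kidney over gastrocnemius. Genes of the mitochondrial genome took 9.95 to 13.1% of the counts in brain, 24.5 to 28.9% in kidney and 19.7 to 26.9% in gastrocnemius. Results that hold under both scalings are therefore given first. In control mice brain exceeded kidney under both for Sepw1 (2.97 ± 0.24 with TMM, 3.46 with totals), Sepn1 (2.19 ± 0.25 and 2.70), Ept1 (2.14 ± 0.43 and 2.61) and Selm (1.15 ± 0.20 and 1.65), and was below kidney under both for Selo (-1.53 ± 0.20 and -1.04), Vimp (-1.18 ± 0.21 and -0.68) and Selt (-0.93 ± 0.13 and -0.43). The edgeR adjusted p-values with TMM were between 2.43e-06 and 0.00129 for these 7 genes.

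Brain exceeded gastrocnemius under both scalings for Selm (2.73 ± 0.22 with TMM, 3.81 with totals), Ept1 (1.96 ± 0.43 and 3.04) and Sepn1 (1.75 ± 0.25 and 2.82), and was below it for Sepw1 (-1.74 ± 0.23 and -0.63). Kidney exceeded gastrocnemius under both for Selm (1.57 ± 0.21 and 2.16), Selo (0.68 ± 0.19 and 1.28) and Selenof (0.56 ± 0.19 and 1.15), and was below it for Sepw1, by the largest difference of any member in these 3 contrasts (-4.71 ± 0.26 and -4.10). The calls of Selo and Selenof there were not kept without 1 library: the adjusted p became 0.0552 for Selo without control kidney library 2, and 0.059, 0.0587 and 0.0777 for Selenof without control kidney library 1, control kidney library 3 and control gastrocnemius library 2.

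The remaining members gave no direction that both scalings shared, or no shared call. In brain over gastrocnemius Selk (-0.64 with TMM, 0.45 with totals), Selt (-0.62 and 0.46), Selo (-0.86 and 0.24), Vimp (-1.02 and 0.07), Selenof (-0.39 and 0.70) and 2700094K13Rik (-0.06 and 1.05) changed sign with the scaling. In brain over kidney Selk (-0.20 and 0.30) and 2700094K13Rik (-0.25 and 0.25) did so, and Selenof kept its sign (-0.95 and -0.45) but not its call under totals (adjusted p = 0.0661). In kidney over gastrocnemius Selk (-0.44 and 0.14), Sepn1 (-0.44 and 0.12) and Ept1 (-0.18 and 0.43) changed sign, and Selt (0.31 and 0.89), Vimp (0.16 and 0.76) and 2700094K13Rik (0.19 and 0.80) lay above 0 under both, with Selt and Vimp called by edgeR under totals and not with TMM.

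**Figure D5:**
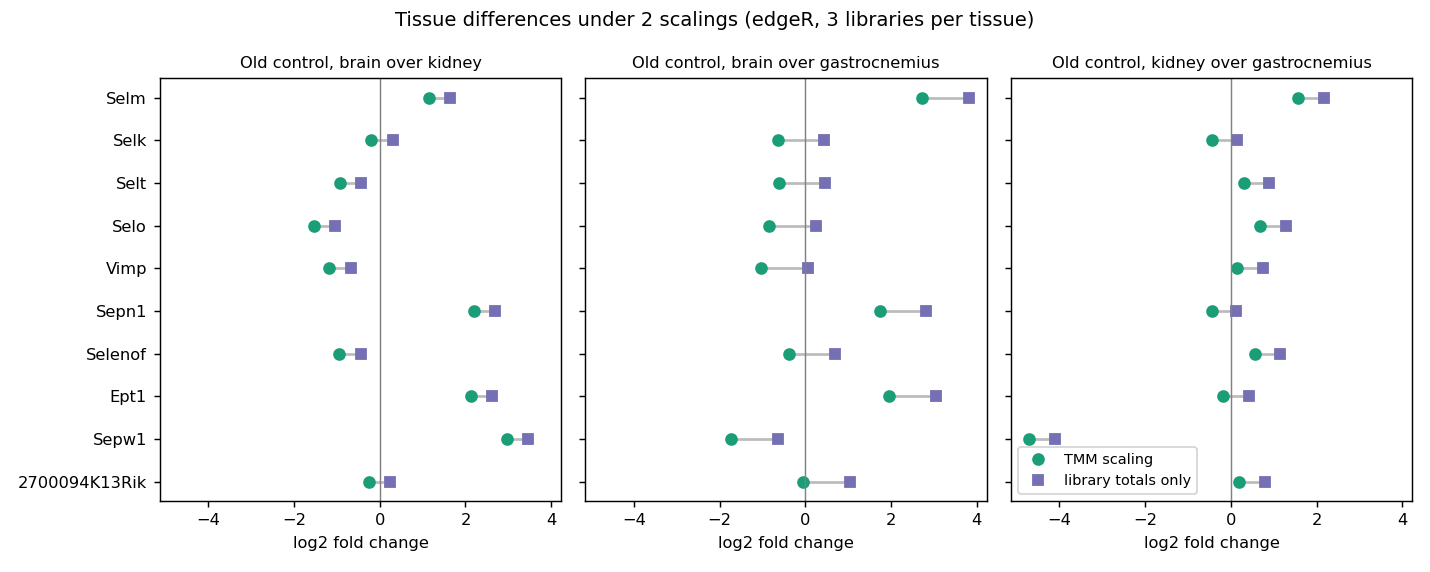
Log2 fold change of each member between tissues of old control mice with TMM scaling (green circles) and with library totals only (violet squares), joined by grey lines; edgeR, 3 libraries per tissue. Moving from TMM to totals shifts every point to the right, by about 0.50, 1.08 and 0.58 in the 3 panels, which carries Selk across 0 in each panel and 6 members across 0 for brain over gastrocnemius; Selm, Sepn1, Ept1 and Sepw1 keep their sides in both panels with brain.

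With TMM, edgeR called 8, 8 and 5 of 10 members in control mice for brain over kidney, brain over gastrocnemius and kidney over gastrocnemius, where 70.9%, 71.5% and 61.2% of all genes were called, so the members' shares were near those of genes in general. In SeMSNs libraries the same 3 contrasts called 8, 7 and 5 members, where 70.7%, 71.6% and 63% of genes were called. Called the same way in both sets of mice were 8 members for brain over kidney, 6 for brain over gastrocnemius and 5 for kidney over gastrocnemius, and 0 were called in opposite directions, while 63.3%, 63.4% and 54.2% of all genes were called the same way in both. The 3 contrasts within a set share libraries and are not independent.

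Genes whose profile over the 18 libraries lay closest to each member were ranked for each member by the root mean square difference of centred log2 CPM over 15727 genes, a description of levels that includes the tissue differences. This difference grows with a gene's own spread, so it does not rank the members against each other. The neighbours of Selk were Spcs2 (0.12) and Arl1 (0.13), those of Selt Arcn1 (0.14) and Bet1 (0.14) and those of Selenof Psme1 (0.15) and Atraid (0.15). For Vimp they were Fbxw8 (0.17) and Pcbp2 (0.18), for Selo Fbxo22 (0.20) and Smc4 (0.22), and for Sepw1 Zfp651 (0.28) and Pkia (0.37). 2700094K13Rik lay nearest to Pigb (0.30) and Tipin (0.35), Sepn1 to Bmp1 (0.33) and Cerk (0.34), and Selm to Rcan3 (0.35) and Eml5 (0.36). For Ept1 the closest, D16Ertd472e and Abl2, were at 0.75 and 0.76. Divided by the member's own standard deviation over the 18 libraries, the difference from the nearest gene was smallest for Sepw1 (0.14) and largest for 2700094K13Rik (0.63), with Ept1 at 0.47 and Selk at 0.34.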

How the data were processed

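The authors deposited raw counts and FPKM values for every gene and library; FPKM had been scaled to library totals and a gene length, as the ratio of the columns shows. The submitters' processing notes name the GRCm38 build. Which aligner, counting tool, annotation version and strand setting were used is not given in the sources used here. Counts were fitted by edgeR 4.0.16 in R 4.3.3 (low counts removed by filterByExpr at min.count 10 and min.total.count 15, then TMM, glmQLFit, glmQLFTest), one fit per tissue for treatment, one per treatment for tissue contrasts and one of all 18 libraries for averaged effects and their differences. Benjamini-Hochberg adjustment ran over all genes tested, with a threshold of 0.05. All 10 members passed the filter in every fit. A standard error is the size of the log2 fold change over the root of its F statistic. The script was tested on simulated counts with 200 changed genes.

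Alternatives were edgeR's RLE size factors, no filter, DESeq2 1.42.0, limma 3.58.1 on log2(FPKM + 1) and log2(FPKM + 0.1), library totals without TMM, a replicate block and leaving out each library. Removing brain libraries in pairs, averaging over kidney and gastrocnemius alone, and transcript lengths were added after seeing the data. Named were all 10 members, the 2 genes with the smallest p in each pathway list of a tissue where none was called, and the 2 nearest profiles. The members and the lists were chosen with earlier results of these data known. Sequences are from the GENCODE M21 annotation and transcripts. The third SeMSNs library of each tissue carries the number 4 in its column name. Replicates of a group differed by 16.8 to 137 times the counting variance (chi-square per degree of freedom), so no pair was counted as 1 library; this does not show that they came from separate mice. Intervals of counting error were not used.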

Additional observations from a re-analysis of the deposited data

How the results depend on the processing

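The count of called members moved by over 1.5 times in 4 comparisons. For brain it was 0 with edgeR, 3 with DESeq2 (4.16% of genes), 0 to 5 when 1 library was left out (17.2% of genes at 5), and 5 without SeMSNs library 3 and control library 2 together (16.1% of genes). For the averaged effect it was 0, 1 with DESeq2 (5.88% of genes) and 0 to 1 when 1 library was left out. For brain minus kidney it was 0 and 0 to 1 when 1 library was left out, and for brain minus gastrocnemius 0, 1 with DESeq2 (1.59% of genes) and 0 to 2 when 1 library was left out. The main fits called 0% and 0.0333% of genes in these differences. Smaller moves occurred between tissues: without 1 library the count was 8 to 9 for control brain over gastrocnemius and 4 to 6 for control kidney over gastrocnemius, where DESeq2 gave 6, and 7 to 8, 6 to 7 and 4 to 7 in the 3 SeMSNs contrasts. The main fits called 71.5% and 61.2% of all genes in these control contrasts, and 70.7%, 71.6% and 63% in the SeMSNs contrasts. The shares without each library are not given here, so these counts are not read as a result about the members.

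Library numbers were not treated as pairs. Residual correlations of same-numbered libraries ran from -0.109 to 0.0983 over 9 pairs of SeMSNs and control libraries of a tissue, and from -0.0480 to 0.0885 over 36 pairs from different tissues. The 9 control pairs from different tissues were all positive (0.0157 to 0.0885) but none passed 0.1, and the labels do not say whether a number marks 1 mouse. With a replicate block 0 members were called in each treatment comparison, as without it, and 8, 8 and 5 in the 3 control tissue contrasts. The fits without a block also called 8, 8 and 5 there, beside 70.9%, 71.5% and 61.2% of all genes.

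Signs reversed for these treatment values and tissue contrasts. In brain Selt was 0.0029 without a filter, 0.0326 and 0.0331 under limma with pseudocounts 1 and 0.1 and 0.0330 without SeMSNs library 3 and control library 2, where Selk was -0.13 and Selenof -0.14; without SeMSNs libraries 1 and 2 Sepw1 was 0.33 and 2700094K13Rik -0.19. In kidney Selo was 0.0029 and 0.0042 under limma with pseudocounts 1 and 0.1, and in gastrocnemius Sepn1 was 0.00052 under limma with pseudocount 0.1 and 0.0182 with the replicate block. Leaving out 1 library moved brain Selenof between -0.0794 and 0.18, Selk between -0.0749 and 0.18, Selt between -0.0410 and 0.0513 and Sepw1 between -0.42 and 0.0122, kidney Selo between -0.13 and 0.0671 and Selk between -0.0016 and 0.16, and gastrocnemius Selt between -0.18 and 0.11 and Sepn1 between -0.22 and 0.22. The cause was not tested.

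In control mice, tissue contrasts reversed under limma with pseudocount 1, limma with pseudocount 0.1 and library totals, given in that order. None of these settings uses TMM. The limma fits also differ in test and in using FPKM, and these parts were not separated. For brain over kidney Selk was 0.29, 0.30 and 0.30 and 2700094K13Rik 0.16, 0.24 and 0.25. For brain over gastrocnemius Selk was 0.44, 0.45 and 0.45, Selt 0.46, 0.47 and 0.46, Selo 0.21, 0.25 and 0.24, Vimp 0.0872, 0.10 and 0.0738, Selenof 0.65, 0.71 and 0.70 and 2700094K13Rik 0.61, 0.97 and 1.05. For kidney over gastrocnemius Selk was 0.15, 0.15 and 0.14, Sepn1 0.0731, 0.16 and 0.12 and Ept1 0.12, 0.20 and 0.43. Leaving out 1 library moved 2700094K13Rik between -0.44 and 0.19 for brain over gastrocnemius, between -0.62 and 0.0724 for brain over kidney and between -0.14 and 0.44 for kidney over gastrocnemius, where Ept1 ran from -0.68 to 0.22 and Vimp from -0.0546 to 0.31.

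The 3 libraries a group limit every treatment result. The low counts of Ept1, Sepn1 and Selm outside brain, and of 2700094K13Rik in every tissue, limit theirs further. FPKM levels moved by at least 1 SD for 46 of 60 group means with transcript lengths and for 36 of 60 with TMM factors.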
